A study of Homo sapiens with 6 samples.

Results

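The genes described here carry a numbered LINC symbol, the form of name given to long intergenic noncoding RNAs, in C4-2B-ENZR cells. C4-2B-ENZR is a human prostate cancer cell line, the enzalutamide-resistant derivative of C4-2B (enzalutamide is a hormone-therapy drug for prostate cancer). Genes were chosen by 2 criteria, a symbol of the form LINC followed by digits and at least 20 estimated counts in each of 4 libraries. The criteria were met by 121 gene identifiers with 120 symbols (LINC01238 has 2 identifiers), out of 2097 LINC-named genes and 57820 genes in all. The name does not fix the type of gene. The GENCODE 29 annotation lists 94 of the 121 as lincRNA, 11 as processed transcript and 9 as antisense. The rest have other types, with LINC00680, LINC00888 and LINC02210 listed as pseudogenes and LINC02693 as protein coding. Another 1472 LINC-named genes were listed at 0 in all 4 libraries, and 504 had some counts but fell short of the minimum in at least 1 library. The level of each gene was thus used to choose it, and the criteria name no difference between the groups. The minimum was set in unscaled counts, however, and the control libraries were larger. After scaling for library size, 20 counts stood for 16.5 and 19.8 in the controls and for 21.6 in RUVBL1 siRNA replicate 2. Close to the minimum, choice and comparison are therefore not fully separate, and genes higher after RUVBL1 siRNA passed more easily.

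Total RNA was sequenced after transfection with either a negative-control siRNA or an siRNA against RUVBL1, with 3 libraries per group and no other agent named in the labels. RUVBL1 is an AAA+ ATPase. With its partner RUVBL2 it is part of several chromatin remodellers and helps to assemble large RNA-protein and kinase complexes. Only replicates 2 and 3 of each group were compared, because 92 of the 121 genes were listed at 0 in both replicate 1 libraries, which are described at the end. The 4 libraries held between 23526449 and 36054489 estimated counts. The cells are of 1 line, and the labels do not tell separate cultures from repeated libraries. All p-values therefore measure library-to-library spread, which may be only technical. In the control libraries RUVBL1 had normalized counts of 5061 and 5148. In the RUVBL1 siRNA libraries it had 2840 and 2937, or 56.6% of the control mean (log2 fold change -0.82, SE 0.0269, edgeR quasi-likelihood test with Benjamini-Hochberg adjustment, adjusted p = 1.43e-23). All 7 luminal prostate markers reported here, KLK3 among them, had at least 20 counts in each library, while the basal keratins KRT5 and KRT14 were at 0. These 7 markers summed to normalized counts of 106050.1 and 106004 in the controls and to 89635 and 88826 after RUVBL1 siRNA. FOLH1 went from 42724 and 42501 to 33277 and 33277, and KRT8 from 19415 and 19523 to 14085 and 13796. KLK2 and KRT18 were lower too. TMPRSS2 and HOXB13 overlapped between groups, and KLK3 differed little (12350 and 12465 against 12247 and 12121). The sum thus does not describe each marker. Immune markers, of which CD68 supplied most counts and the T cell marker CD3E none, summed to 375 and 365 in the controls and to 178 and 179 after RUVBL1 siRNA. The immune marker PTPRC had 11.6 and 10.9 against 10.8 and 11.8. The fibroblast marker COL1A1 had 267 and 265 against 273 and 234, and the neuroendocrine marker SYP 104 and 99.8 against 124 and 121. The part of these shifts in the results below was not tested.

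Long intergenic noncoding RNAs are transcribed by RNA polymerase II from genes that lie between protein-coding genes, and most are capped, spliced and polyadenylated like mRNAs but carry no long conserved reading frame. Many stay in the nucleus or on chromatin, are made at low levels and are short-lived, since the nuclear exosome degrades RNAs of this kind and the Integrator complex ends transcription early at many noncoding units. A few act as scaffolds, decoys or regulators of neighbouring genes, and for most numbered LINC genes no function has been established.

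The transcripts that the results turn on start from unlike promoters. Promoter windows, running from 250 bases before the annotated start to 50 bases after it, were taken from RefSeq (GRCh38.p14) for 79 of the 120 symbols. The windows below belong to the 2 genes with the largest rises (LINC01133 and LINC01354), the most abundant gene (LINC00963) and the 2 genes that fell (LINC01106 and LINC02870). The LINC01133 window is chr1:159960974-159961273 on the + strand, that of LINC01354 chr1:234531730-234532029 on the - strand, that of LINC00963 chr9:129488410-129488709 on the + strand, that of LINC01106 chr2:110384487-110384786 on the - strand and that of LINC02870 chr10:132444939-132445238 on the + strand. Capitals mark CCAAT boxes and GC boxes (GGGCGG), on either strand.
LINC01133: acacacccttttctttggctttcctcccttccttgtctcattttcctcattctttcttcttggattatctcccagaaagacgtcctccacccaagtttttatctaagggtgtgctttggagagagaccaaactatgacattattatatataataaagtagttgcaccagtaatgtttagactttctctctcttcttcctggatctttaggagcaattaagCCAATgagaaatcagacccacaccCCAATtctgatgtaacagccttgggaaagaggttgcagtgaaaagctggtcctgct
LINC01354: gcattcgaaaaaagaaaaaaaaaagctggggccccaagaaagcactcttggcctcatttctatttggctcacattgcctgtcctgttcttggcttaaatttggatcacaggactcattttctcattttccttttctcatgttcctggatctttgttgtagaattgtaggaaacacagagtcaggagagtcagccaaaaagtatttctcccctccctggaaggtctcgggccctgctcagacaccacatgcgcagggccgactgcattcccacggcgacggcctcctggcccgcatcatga
LINC00963: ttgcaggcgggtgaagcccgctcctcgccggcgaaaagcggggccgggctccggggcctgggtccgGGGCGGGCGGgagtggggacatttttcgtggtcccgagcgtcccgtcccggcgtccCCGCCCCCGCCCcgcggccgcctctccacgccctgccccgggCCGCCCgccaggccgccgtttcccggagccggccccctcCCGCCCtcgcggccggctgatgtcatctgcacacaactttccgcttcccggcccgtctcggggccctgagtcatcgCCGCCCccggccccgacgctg
LINC01106: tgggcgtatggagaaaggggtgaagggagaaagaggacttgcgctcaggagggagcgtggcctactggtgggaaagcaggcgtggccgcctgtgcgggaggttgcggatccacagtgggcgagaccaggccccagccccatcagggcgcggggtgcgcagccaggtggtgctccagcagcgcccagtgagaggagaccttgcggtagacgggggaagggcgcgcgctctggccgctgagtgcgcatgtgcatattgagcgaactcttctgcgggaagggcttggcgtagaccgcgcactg
LINC02870: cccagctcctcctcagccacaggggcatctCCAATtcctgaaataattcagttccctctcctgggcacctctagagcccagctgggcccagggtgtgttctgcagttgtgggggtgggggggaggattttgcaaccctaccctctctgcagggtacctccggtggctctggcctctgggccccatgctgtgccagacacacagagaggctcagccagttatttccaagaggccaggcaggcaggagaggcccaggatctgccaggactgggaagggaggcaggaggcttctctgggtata
The LINC00963 window was 78.0% G or C, with 43 CG dinucleotides and 7 GC boxes. The LINC01133 window was 41.3% G or C and held 1 CG dinucleotide and 2 CCAAT boxes. LINC02870 had 1 CCAAT box, and neither the LINC01354 nor the LINC01106 window held any of the 6 motifs searched.

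More of the LINC RNAs were higher than lower after RUVBL1 siRNA. All 121 genes were among the 16416 genes tested, and 47 rose, 2 fell and 72 did not pass the threshold of an adjusted p under 0.05 (edgeR quasi-likelihood test with Benjamini-Hochberg adjustment over all tested genes). Over all tested genes 45.1% passed in either direction, 20.9% as higher and 24.2% as lower. The LINC RNAs were thus called higher in 38.8% and lower in 1.65%. Their median log2 fold change was 0.33, with quartiles of 0.07 and 0.54, against 0.01 for all tested genes. Among all genes with the same minimum, the median ran from 0.17 at a mean normalized count under 50 to -0.04 at 500 or more. In 100 of the 121 genes the fold change was above 0. The normalized counts of the groups did not overlap in 78 genes that were higher and 10 that were lower after RUVBL1 siRNA, where 36.0% of all tested genes were separate and higher and 35.2% separate and lower. These are relative levels in bulk RNA, in which fewer cells of a type and less RNA per cell cannot be told apart.

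The rises were mostly modest. Among the 47 genes that rose, the median fold was 1.48 and the range 1.09 to 4.74, with 4 genes at 2-fold or more and 26 under 1.5-fold. Calls depended on the tool and on the scaling. DESeq2 called 25 of the same 49 genes, 23 higher and 2 lower, and no further LINC RNA. A fit of all 6 libraries, replicate 1 included, called 13 LINC RNAs, 11 of them among the 49. With the replicate number as a block in that fit, 43 of the 49 were called. Scaling by library totals alone called 61 higher and 2 lower. That scaling moved the median of all tested genes up by 0.10 on the log2 scale and made 68.5% of all calls higher, against 46.4% with the TMM factors used here. The median of the LINC RNAs stood above that of all tested genes by 0.32 under both scalings. A change of scaling moves all fold changes by nearly the same amount, so this difference cannot test the scaling. With 2 libraries against 2, an exact two-sided permutation test of 1 gene cannot give a p below 0.333, so single-gene calls rest on the variance that edgeR shares across genes.

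**Figure D1:**
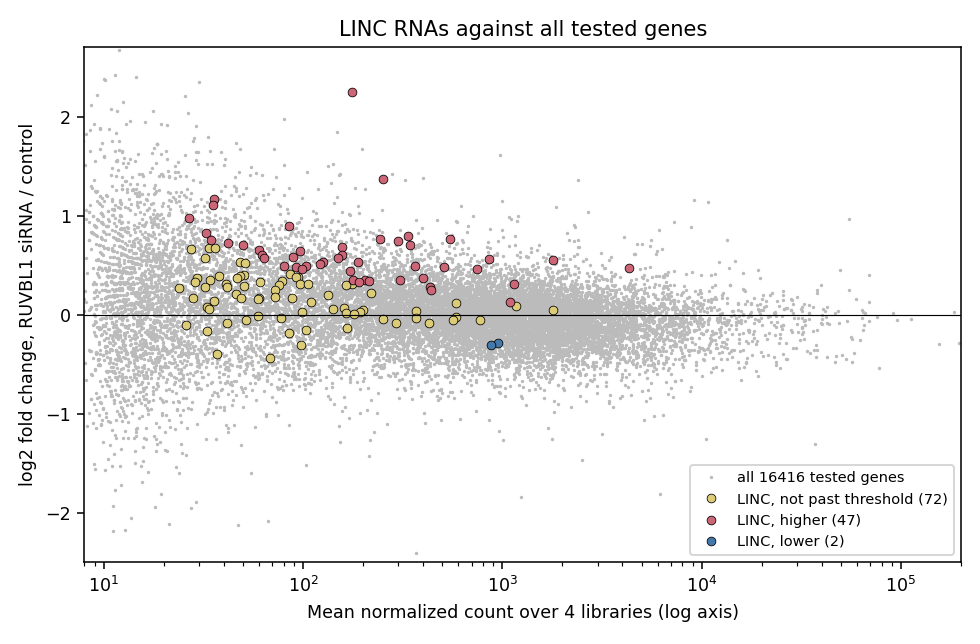
Each point is a gene, with its mean normalized count over the 4 libraries on a log axis and its log2 fold change (RUVBL1 siRNA over control) on the vertical axis. The 47 LINC RNAs that rose spread from low to high levels, the 2 that fell sit near a normalized count of 1000, and 49 tested genes lie outside the axes.

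LINC01133, which has been studied in several carcinomas, had the largest rise. Control libraries had normalized counts of 59.4 and 63.3 and RUVBL1 siRNA libraries 305 and 276, so that the groups lay far apart. The rise was 4.74-fold (log2 fold change 2.24, SE 0.141, edgeR adjusted p = 1.33e-15). LINC01354 came next, with 145 and 136 in the controls and 375 and 353 after RUVBL1 siRNA. Its groups did not overlap either, and it rose 2.58-fold (log2 fold change 1.37, SE 0.110, edgeR adjusted p = 9.10e-13). Both calls were also made by DESeq2 and without any single library. In the fit of all 6 libraries, where replicate 1 holds both genes at 0, the log2 fold changes were 2.23 and 1.36 and the adjusted p 0.483 and 0.693 (edgeR), and with the replicate number as a block both were called.

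Several of the next largest rises rested on few counts. LINC02981 had normalized counts of 23.9 and 19.8 in the controls and 41.0 and 58.9 after RUVBL1 siRNA (2.25-fold). LINC02475 had 17.3 and 27.7 against 46.4 and 49.5 (2.15-fold). LINC02977 had 16.5 and 19.8 against 30.2 and 41.2 (1.96-fold). The groups were separate in all 3 genes, at few counts per library. Leaving out RUVBL1 siRNA replicate 3 ended the call of LINC02981 (adjusted p = 0.0766, edgeR) and leaving out control replicate 2 that of LINC02475 (adjusted p = 0.0843, edgeR). LINC02977 was not called by DESeq2 (adjusted p = 0.134), nor in edgeR without control replicate 2, control replicate 3 or RUVBL1 siRNA replicate 3 (adjusted p = 0.140, 0.0552 and 0.216).

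Of the other low genes, LINC01976 went from 61.1 and 57.3 to 111 and 110 (log2 fold change 0.89, edgeR adjusted p = 0.000138), with values within each group almost equal. It was called by DESeq2 as well. LINC00659 went from 22.3 and 24.7 to 36.7 and 47.1 and LINC00863 from 36.3 and 39.5 to 64.7 and 58.9. LINC01588 went from 31.4 and 19.8 to 45.3 and 42.4 and LINC03014 from 38.8 and 23.7 to 48.5 and 56.5. In these 4 genes the groups did not overlap, with log2 fold changes from 0.71 (LINC00863) to 0.83 (LINC00659), yet DESeq2 called none of them (adjusted p = 0.159 for LINC00659, 0.131 for LINC00863, 0.193 for LINC01588 and 0.171 for LINC03014). In edgeR, LINC00659 was lost without control replicate 2, control replicate 3 or RUVBL1 siRNA replicate 3 (adjusted p = 0.136, 0.0681 and 0.232). LINC00863 was lost without control replicate 2 or RUVBL1 siRNA replicate 2 (adjusted p = 0.100 and 0.115 in edgeR). LINC01588 (adjusted p = 0.283, 0.162 and 0.0894) and LINC03014 (adjusted p = 0.283, 0.0531 and 0.173) were each lost in edgeR without control replicate 3, RUVBL1 siRNA replicate 2 or RUVBL1 siRNA replicate 3.

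A set of genes with more counts rose by similar amounts with less error. LINC00662, which has been studied in several tumour types, went from 268 and 225 to 441 and 417. LINC00174 went from 443 and 369 to 699 and 682. LINC02983 went from 175 and 187 to 309 and 306. LINC02604 went from 235 and 214 to 373 and 378, and LINC01003 from 275 and 251 to 440 and 417. The lowest RUVBL1 siRNA library lay well above the highest control library in each of the 5 genes. Log2 fold changes ran from 0.70 (SE 0.0925, LINC01003) to 0.79 (SE 0.0969, LINC00662), with edgeR adjusted p from 6.88e-10 (LINC00174) to 2.82e-07 (LINC02983). All 5 calls held in DESeq2 and without any single library, and all 5 were lost in the fit of all 6 libraries (edgeR adjusted p from 0.839 to 0.861), where their log2 fold changes were 0.70 to 0.80, and called again once the replicate number entered as a block.

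**Figure D2:**
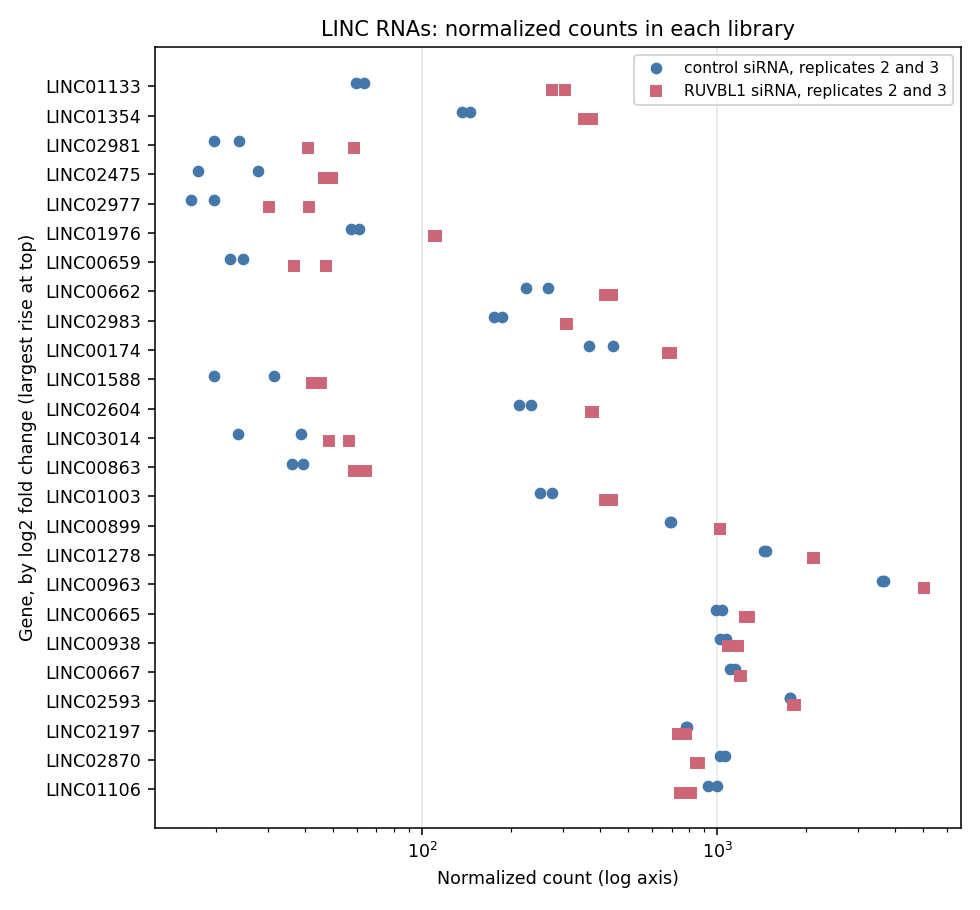
Normalized counts (log axis) in the 2 control and 2 RUVBL1 siRNA libraries for the 15 largest rises, the 2 falls and the 10 most abundant LINC RNAs, sorted by log2 fold change. LINC01133 shows the widest gap between groups, from 59.4 and 63.3 to 305 and 276, while LINC02593 stays between 1762 and 1833.

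The most abundant LINC RNAs did not move as 1 group. LINC00963, linked to the progression of prostate cancer to castration resistance, had the highest normalized count and also the highest count per kilobase of median transcript length (GENCODE 29). It had normalized counts of 3621 and 3663 in the controls and 5027 and 5040 after RUVBL1 siRNA. The groups lay apart by far more than the libraries within them, and LINC00963 rose 1.38-fold (log2 fold change 0.47, SE 0.0250, edgeR adjusted p = 1.70e-17). LINC01278 went from 1445 and 1460 to 2131 and 2119 (log2 fold change 0.55, SE 0.0378, edgeR adjusted p = 1.61e-14). LINC00899 went from 689 and 695 to 1023 and 1024 (log2 fold change 0.56, SE 0.0539, edgeR adjusted p = 6.96e-11), and LINC00665 from 992 and 1038 to 1238 and 1283 (log2 fold change 0.31). These 4 genes rose with the groups far apart. LINC00963 (adjusted p = 0.900) and LINC00665 (adjusted p = 0.938) were not called in the edgeR fit of all 6 libraries without a block.

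LINC00938 had 1020 and 1067 in the controls and 1179 and 1090 after RUVBL1 siRNA, groups that are separate but close. Its rise was 1.09-fold (log2 fold change 0.12, SE 0.0498, edgeR adjusted p = 0.0406), the smallest that passed. It was not called by DESeq2 (adjusted p = 0.224), with no filter on low counts (adjusted p = 0.0959 in edgeR), or in edgeR without control replicate 2, control replicate 3 or RUVBL1 siRNA replicate 2 (adjusted p = 0.314, 0.0505 and 0.446). LINC02593 had 1766 and 1762 against 1833 and 1804 (log2 fold change 0.04, SE 0.0376, edgeR adjusted p = 0.365). LINC00667 had 1146 and 1109 against 1208 and 1192 (log2 fold change 0.09, edgeR adjusted p = 0.1203). LINC02197 had 791 and 785 against 783 and 735 (log2 fold change -0.05, edgeR adjusted p = 0.485), and with library totals alone its log2 fold change was 0.05. None of these 3 passed the test, although their groups did not overlap. Under library totals alone, LINC02593 (log2 fold change 0.15) and LINC00667 (log2 fold change 0.19) were called higher in edgeR.

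Both genes that fell were abundant. LINC01106 had normalized counts of 934 and 996 in the controls and 814 and 748 after RUVBL1 siRNA, and fell by 0.30 on the log2 scale (SE 0.0563, edgeR adjusted p = 3.32e-05). LINC02870 had 1025 and 1067 against 846 and 868, and fell by 0.29 on the log2 scale (SE 0.0515, edgeR adjusted p = 1.86e-05). In both, every RUVBL1 siRNA library lay below every control library. Both calls held in DESeq2 and without any single library, and in the fit of all 6 libraries LINC01106 was lost (adjusted p = 0.942, edgeR) unless the replicate number was a block.

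Together the 121 genes took 0.0945% and 0.0952% of all counts in the control libraries and 0.125% and 0.123% after RUVBL1 siRNA. The groups did not overlap, and the ratio of the mean shares was 1.31. LINC00963 alone supplied between 12.9% and 14.8% of the LINC counts in a library, and without it the ratio was 1.28. The 5 most abundant genes supplied between 31.9% and 33.6%. Mean normalized counts of the 121 genes ran from 23.8 to 4338 with a median of 97.2, and 63 genes averaged under 100. The highest share per kilobase after LINC00963 belonged to LINC01278 and then to LINC02593, with 6188, 2181 and 1290 normalized counts per kilobase.

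Among the 72 genes that did not pass, 53 had a log2 fold change above 0 and 19 below. Groups did not overlap in 39 of them, 31 higher and 8 lower. Chosen after their values were seen, LINC03060 had the highest log2 fold change of the 72 and LINC01446 the lowest. LINC03060 had 26.4 and 25.7 against 39.9 and 43.6 (log2 fold change 0.67, edgeR adjusted p = 0.0669). LINC01446 had 81.7 and 76.1 against 64.7 and 51.8 (log2 fold change -0.44, edgeR adjusted p = 0.0895). In both the groups were separate, with SEs of 0.300 and 0.209 on the log2 scale.

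The minimum count cut through a continuum. Just inside it were LINC02718 with estimated counts of 27 and 21 in the controls and 20 and 26 after RUVBL1 siRNA, LINC00896 with 31 and 28 against 20 and 24, and LINC02977 with 20 and 20 against 28 and 35. Just outside were LINC01189 with 19.7 and 20.1 against 24.4 and 21.0, LINC02367 with 40.7 and 25.9 against 29.01 and 19.4, and LINC01770 with 36 and 28 against 35 and 19. Another 67 LINC-named genes under the minimum were tested, and 10 of them rose (14.9%) and 1 fell (1.49%). Over all tested genes, at every level, 20.9% rose and 24.2% fell. A gene could be tested through the 2 libraries of 1 group alone. The 67 can thus include genes let in by their higher group, and their split is not read as a result. The minimum was met only by the controls in 8 genes and only by the RUVBL1 siRNA libraries in 11.

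The share of LINC RNAs called higher was largest at intermediate levels. At a mean normalized count under 50, 21.9% of 32 LINC RNAs were called higher, against 10.4% of all genes with the same minimum in each library. From 50 to under 100, 9 of 31 were higher against 18.8%. From 100 to under 200 it was 45.8% of 24 against 22.6%, from 200 to under 500 it was 66.7% of 18 against 23.6%, and at 500 or more it was 8 of 16 genes against 24.8%. In every range the LINC share was above that of all genes. From the lowest range to the highest, LINC medians of the log2 fold change were 0.36, 0.33, 0.31, 0.35 and 0.12. Those of all genes with the same minimum were 0.17, 0.13, 0.09, 0.04 and -0.04. No LINC RNA under 500 was called lower, and 12.5% at 500 or more were. The share of all genes called lower ran from 2.65% to 39.5%. The standard error of the log2 fold change had a median of 0.17 over the LINC RNAs and reached 0.35, so a change of small size in a low gene was not detectable at this depth.

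**Figure D3:**
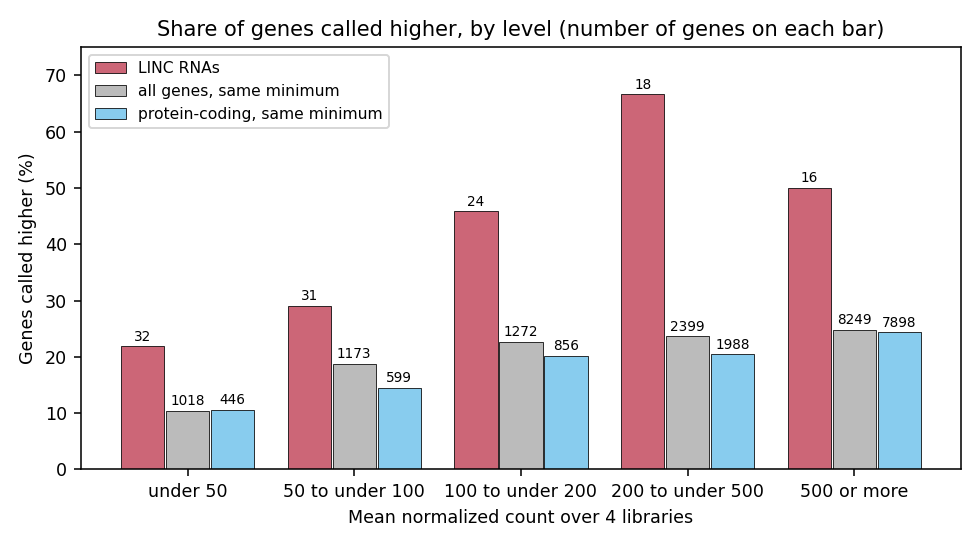
Bars give the percentage of genes called higher after RUVBL1 siRNA in 5 ranges of mean normalized count, for LINC RNAs, all genes with the same minimum count and protein-coding genes among them, with the number of genes above each bar. The LINC bar is the highest in every range, from 21.9% under 50 counts to 66.7% between 200 and 500.

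Other noncoding name classes with the same minimum count shifted in a similar way. Of 320 antisense genes (symbols ending in AS and a number), 114 rose and 8 fell, with a median log2 fold change of 0.26. Among 169 divergent transcripts (symbols ending in DT), 61 rose and 2 fell, with a median of 0.31. GENCODE 29 lists 315 further genes of this minimum as lincRNA under other names, and 100 of these rose and 7 fell (median 0.28). Host genes of small nucleolar RNAs or microRNAs gave 12 rises and 8 falls among 42 (median 0.12), and 20 higher and 2 lower (median 0.22) with library totals alone. Protein-coding genes with the same minimum numbered 11787, of which 2636 rose and 3704 fell (median -0.02). That split turned to 4404 higher and 2367 lower (median 0.08) with library totals alone. With the TMM factors the protein-coding median ran from 0.14 at a mean normalized count under 50 to -0.04 at 500 or more. With library totals alone the counts higher and lower were 155 and 4 for antisense genes, 87 and 1 for divergent transcripts and 149 and 3 for the other lincRNA genes. In DESeq2 they were 62 and 3 for antisense genes, 28 and 1 for divergent transcripts, 53 and 2 for the other lincRNA genes and 7 and 4 for host genes. Leaving out control replicate 2 lowered the rises to 35 among divergent transcripts and 66 among the other lincRNA genes. Falls of other lincRNA genes went from 7 to 4 without control replicate 2 or RUVBL1 siRNA replicate 3 and to 3 without RUVBL1 siRNA replicate 2. Falls of host genes went from 8 to 5 without either control replicate and to 4 without RUVBL1 siRNA replicate 2. Falls of antisense genes went from 8 to 5 without RUVBL1 siRNA replicate 2, and those of divergent transcripts from 2 to 1 when control replicate 3, RUVBL1 siRNA replicate 2 or RUVBL1 siRNA replicate 3 was left out. The LINC median of 0.33 stood beside those of the antisense, divergent and other lincRNA genes, and differences between these classes were not tested.

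**Figure D4:**
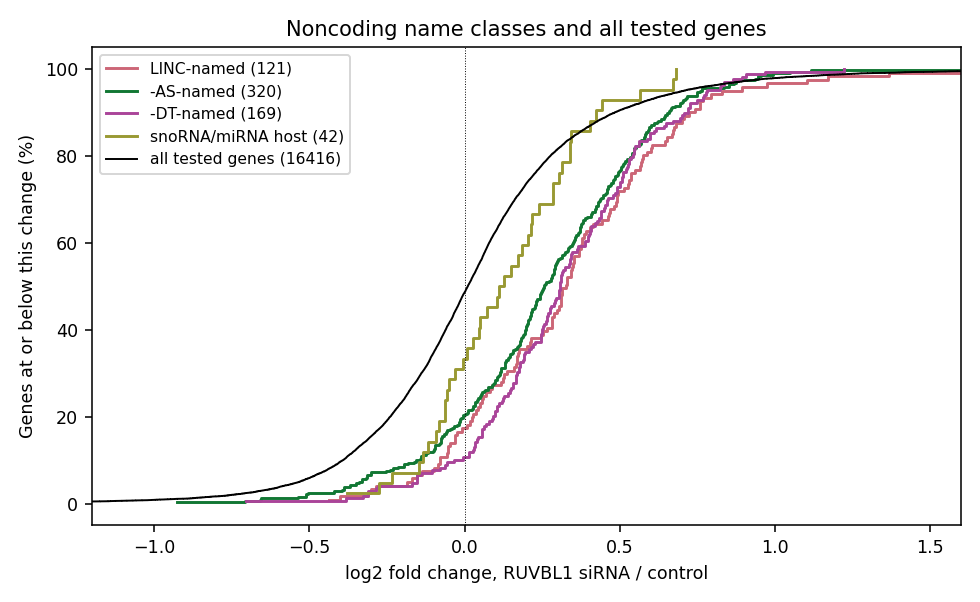
Cumulative percentage of genes at or below each log2 fold change for 4 noncoding name classes with the same minimum count and for all tested genes, of which 160 lie outside the axis. The curves of LINC, antisense and divergent genes run close together to the right of all tested genes, with medians of 0.33, 0.26 and 0.31 against 0.01, and the host genes lie between them.

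Noncoding RNAs known by other names were a mixed set. Of 28 such genes on a list, 22 were tested, and 10 rose and 2 fell with a median log2 fold change of 0.17. The rises included NEAT1, the scaffold of paraspeckles (log2 fold change 0.96), NORAD, which binds the Pumilio proteins (0.39), DANCR (0.38) and OIP5-AS1 (0.30). Of 10 LINC genes with a known link to prostate cancer, 2 were tested and both rose. LINC00963 is given above, and LINC00467 went from 343 and 351 to 456 and 444 (log2 fold change 0.38, SE 0.0847, edgeR adjusted p = 0.000397), with no overlap.

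Genes for the machinery that degrades or terminates noncoding transcripts were called lower more often than higher with the TMM factors, but not in every list with library totals alone. Of 24 genes of the nuclear exosome and its cofactors, 3 rose and 12 fell, with a median log2 fold change of -0.14. NCBP1, the large cap-binding subunit, fell by 0.49 on the log2 scale (SE 0.0432). MTREX, the helicase that feeds RNA to the exosome, fell by 0.30 (SE 0.0292), EXOSC10, a catalytic subunit, by 0.22 (SE 0.0349) and SRRT, which links the cap-binding complex to decay, by 0.19 (SE 0.0249). ZCCHC8, the scaffold of an exosome-targeting complex, rose by 0.28 and ZFC3H1 by 0.21 on the same scale. In the Integrator complex, none of 15 genes rose and 8 fell, among them INTS8 (-0.39), INTS1 (-0.37), INTS7 (-0.30) and the endonuclease INTS11 (-0.17), with a median of -0.17. Among 12 genes of nonsense-mediated decay 1 rose and 6 fell, with SMG8 at -0.65, NBAS at -0.54, SMG5 at -0.28 and the helicase UPF1 at -0.19 (median -0.08). With library totals alone the counts higher and lower were 5 and 6 for the exosome list, 2 and 6 for Integrator and 4 and 4 for nonsense-mediated decay, with medians of -0.04, -0.07 and 0.02. DESeq2 gave 2 and 8, 0 and 7, and 0 and 4. Over all tested genes 24.2% fell, and most genes of these lists are abundant. At a mean normalized count of 500 or more, 39.5% of all genes with the LINC minimum and 40.1% of the protein-coding ones fell. These lists give mRNA levels of the factors, and no relation to the LINC RNAs was tested.

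The nearest tested genes on either side of the rising LINC RNAs were called at shares near those of all tested genes. Nearest was taken at any distance, so a neighbour need not lie close by. By order and strand in GENCODE 29, the 47 rising genes had 92 nearest tested neighbours that did not overlap them, and 16 of these rose, 18 fell and 58 did not pass, where 20.9% of all tested genes rose and 24.2% fell. The median log2 fold change of the neighbours was 0.00. LINC01133 lies between IGSF9 (log2 fold change 0.23, edgeR adjusted p = 0.0640) and PIGM, an enzyme of glycosylphosphatidylinositol anchor synthesis, which fell by 0.39. LINC01354 lies between TARBP1 (0.00, edgeR adjusted p = 0.964) and IRF2BP2, a transcriptional corepressor, which rose by 0.47. NTMT1, the nearest tested gene downstream of LINC00963 though not close to it, fell by 0.33. SNX10, a sorting nexin next to LINC02981, rose by 0.48, and MINPP1, next to LINC00863, fell by 0.56. The neighbours named here are only part of the 92 and do not stand for the rest, most of which did not pass.

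Pairs that start back to back behaved in several ways. Of the rising LINC RNAs, 10 had a tested gene on the opposite strand whose start lay within 5 kb, and 5 of these partners rose and none fell. Over all tested genes 20.9% rose and 24.2% fell. A partner can itself be a LINC RNA, and such a pair can enter this count from both sides. LINC00174 and LINC03011 are a pair of this kind and both rose, the latter from 185 and 172 to 225 and 232. The 5 rising partners are thus not all separate from the rising LINC RNAs that were chosen, and the 10 are not 10 independent pairs. NUTM2A-AS1, the partner of LINC00863, rose by 0.58 on the log2 scale. Chosen after their values were seen, S100P (0.91), a calcium-binding protein gene, and ESRP1 (0.38), an epithelial splicing regulator, rose with their partners LINC02481 and LINC02894. DESeq2 called neither NUTM2A-AS1 (adjusted p = 0.117) nor S100P (adjusted p = 0.171). LINC02593 did not pass while its partner SAMD11 fell by 0.78, from a mean of 1218 to 709. Among the 12 LINC RNAs that did not pass and had such a partner, 2 partners rose and 3 fell.

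LINC RNAs were called higher whether or not they overlapped a tested gene. In GENCODE 29, 29 of the 121 genes overlapped a tested gene, and 12 of them rose (41.4%) and 1 fell. Among the 92 that overlapped none, 35 rose (38.0%) and 1 fell, with a median log2 fold change of 0.35. The sources used here do not say whether counting used strand, so reads of overlapping genes may not have been told apart. On the same strand, 10 genes overlapped a tested gene and 7 of these rose. LINC01278 overlaps SPIN4, which had a log2 fold change of -0.02 (edgeR adjusted p = 0.854). LINC00662 overlaps LINC02987 on the opposite strand, and both rose.

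Promoter windows of the rising genes were compared with all 27305 windows of the RefSeq table for 6 motifs, read on both strands, where neighbouring matches may share letters. GC boxes (GGGCGG) were present in 64.7% of the 34 windows of rising genes, 51.2% of the 43 of genes that did not pass and 44.6% of all windows. CCAAT was found in 55.9%, 46.5% and 35.7% of the same sets. The ETS core CGGAAG was found in 29.4%, 16.3% and 19.9%, and TATAAA in 2 of 34, 7 of 43 and 3264 of 27305. The E-box CACGTG was found in 11.8%, 2.33% and 7.43%, and the cAMP-response core TGACG in 7 of 34, 12 of 43 and 6828 of 27305. Median G and C content was 59.8%, 61.0% and 58.3%. The shares are descriptions of letters in these windows and were not tested.

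In the replicate 1 libraries most LINC RNAs were not counted. Of the 121 genes, 92 were listed at 0 in both, 29 were above 0 in both and 25 had at least 20 counts in both. LINC00963, the most abundant LINC RNA in the other libraries, was listed with 6 and 14. The pattern followed the gene type in GENCODE 29. Of the 94 genes of type lincRNA, 85 were at 0 (90.4%), against 5 of 11 of type processed transcript and none of 9 of type antisense. Over all genes with the same minimum, 375 of 409 of type lincRNA were at 0 (91.7%), against 5 of 610 of type antisense and 12 of 11787 of type protein coding. Because abundant LINC RNAs of the other libraries were listed at or near 0 here, a 0 in replicate 1 is not read as absence, and no mean over 3 replicates is given.

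The 25 genes counted in replicate 1 give values that were not used in the comparison above. Because 85 of the 94 genes of type lincRNA were at 0 there, these 25 under-represent that type. LINC00963 and the 4 genes that rose 2-fold or more are not among them. The log2 ratio of RUVBL1 siRNA to control in replicate 1, 1 library against 1, was above 0 in 19 of them, with a median of 0.26. The same 25 genes had a median of 0.34 in replicates 2 and 3. Over all 13319 genes with that many counts in replicate 1, the median was 0.00 and 50.03% were above 0. The 11 genes called higher in replicates 2 and 3 were all above 0 in replicate 1, and LINC02870, the 1 gene called lower, was below. LINC01278 had estimated counts of 1304 and 1560 in the control and RUVBL1 siRNA libraries (log2 ratio 0.55 after scaling, counting SE 0.0541), beside 0.55 in the other replicates. LINC00899 had 615 and 662 (0.39 beside 0.56) and LINC00467 had 313 and 284 (0.15 beside 0.38). LINC02870 had 913 and 624 (-0.26 beside -0.29). For these 4 genes the direction was that of replicates 2 and 3.

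Low genes spread more widely there. LINC01588, with 26 and 22 counts, had a log2 ratio of 0.05 (counting SE 0.418) beside 0.76 in replicates 2 and 3. LINC01976, with 72 and 62 counts, had 0.07 (counting SE 0.250) beside 0.89. LINC00680, with 126 and 160 counts, had 0.63 beside 0.34. Abundant genes that did not pass stayed near 0 in both sets or differed between them. LINC02693 had -0.02 beside 0.04, LINC00641 -0.04 beside -0.05, LINC00649 0.11 beside 0.05, and LINC02210 0.26 beside 0.12. LINC00632, whose locus gives rise to the circular RNA CDR1as, had 188 and 193 against 191 and 197 in replicates 2 and 3 (log2 fold change 0.02) and -0.30 in replicate 1 (counting SE 0.176). The LINC00632 counts cover the host gene and do not separate linear from circular RNA. LINC00632 also overlaps a protein-coding gene on the opposite strand, and that gene was not flat. In replicates 2 and 3 its mean normalized count went from 1246 in the controls to 1622 after RUVBL1 siRNA. This is a rise of 0.38 in log2 terms, which edgeR called higher (adjusted p = 3.84e-09). How reads at this locus were divided between both genes was not tested.

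**Figure D5:**
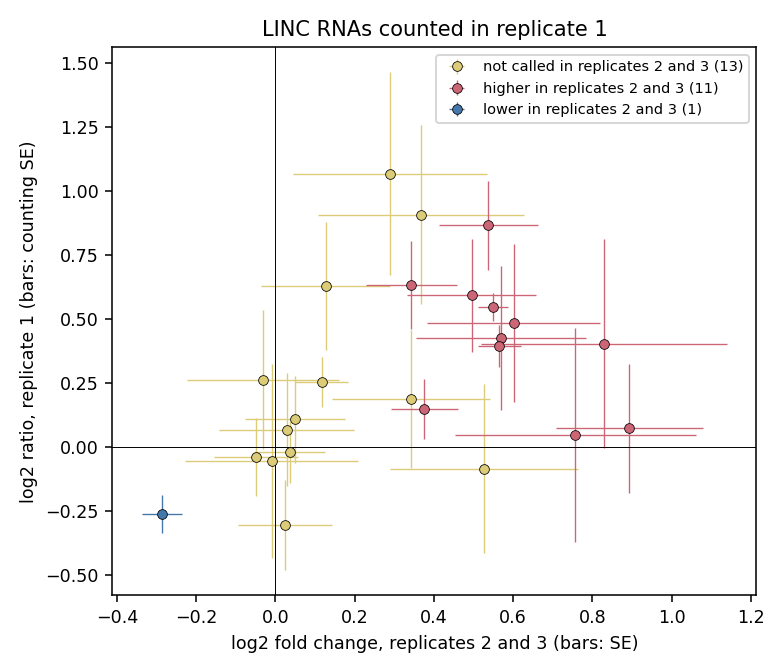
Log2 fold change in replicates 2 and 3 (horizontal, bars are the SE) against the log2 ratio in replicate 1 (vertical, bars are the counting SE) for the 25 LINC RNAs with at least 20 counts in both replicate 1 libraries. All 11 genes called higher lie above 0 on both axes, and LINC02870, called lower, lies below 0 on both.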

How the data were processed

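RNA of 6 libraries was sequenced, 3 per siRNA group. Groups and replicate numbers come from the labels. The authors deposited 1 table of estimated counts for each library, unscaled, as the partly fractional values and unequal totals show. The deposited gene identifiers are human, whereas the submitters' processing notes name Bowtie 0.12.2 and the mouse builds mm8 and mm9. With the counter, human build, annotation and strand setting not given in the sources used here, coordinates are printed only for the RefSeq promoter windows (GRCh38.p14) and not for counted genes. Symbols, found for 51996 of 57820 genes, came from a table of gene names, types and neighbour order from GENCODE 29, and promoters from RefSeq.

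Estimated counts were rounded, which changed library totals by at most 0.000222%. Replicates 2 and 3 were compared in edgeR 4.0.16 under R 4.3.3 by a two-sided robust quasi-likelihood test after filterByExpr and TMM scaling, with Benjamini-Hochberg adjustment over 16416 genes and a threshold of 0.05. The SE is the log2 fold change divided by the square root of F. A normalized count is the count divided by the effective library size, times the mean effective size. Library depth sets the counting error, and the variation beyond counting was 1.62% (common coefficient). The gene set and lists were chosen with earlier results of these data known. Genes named are the 15 largest rises and all falls past the threshold without overlap, the 10 most abundant and the 10 with the highest counts in replicate 1. Also named are the genes next to the minimum, the prostate list, some neighbours of the first group, and the 4 smallest p of each other list. Further genes, among them NTMT1, SAMD11, SPIN4, ZCCHC8 and ZFC3H1, were named outside these rules. Alternatives were DESeq2 1.42.0, limma-voom (limma 3.58.1), other scalings, filters and minimum counts, a replicate block, all 6 libraries and each library left out, and, chosen after seeing the data, genes overlapping no tested gene. The scripts were tested on simulated data. Some markers of the luminal list are not reported here.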

Additional observations from a re-analysis of the deposited data

How the results depend on the processing

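Beside 49 LINC RNAs called (47 higher, 2 lower), DESeq2 called 25 (23 higher), the fit of all 6 libraries 13 (12 higher and 1 lower), and leaving out 1 library each in turn 35 to 40 (33 to 38 higher, 2 lower). For all genes, leaving out a library gave 5975 to 6453 calls beside 7405 (2612 to 2885 higher and 3363 to 3568 lower). DESeq2 called 2104 genes higher beside 3435, and library totals alone called 5527 higher and 2541 lower beside 3970. In the fit of all 6 libraries the replicate 1 zeros enter as values, and 11 of the 49 calls were kept. Of the 49, 33 to 37 were kept without 1 library, and all 49 with DESeq2 size factors, library totals alone, limma-voom, a p bounded by counting noise and the replicate block. Genes overlapping no tested gene gave 35 higher and 1 lower. Minimums of 10 or 50 counts in each library, or a mean of 20, gave 52, 40 and 52 calls. The LINC share of all counts rose 1.28-fold without LINC00963, beside 1.31.

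The labels do not say that replicate numbers pair libraries, and there are only 2 pairs, so the numbers were not taken to pair. The difference between replicates correlated between groups by 0.00637 over all tested genes and by 0.234 over genes with at least 100 normalized counts. With the replicate block 50 LINC RNAs were called (48 higher, 2 lower), 7542 genes in all, and with all 6 libraries and the block 45.

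Signs were followed in 32 LINC RNAs, those named for their rise or fall, abundance, replicate 1 counts or prostate link. Among these, signs changed only in genes near 0 that did not pass. Library totals alone moved the median of all tested genes up by 0.10 on the log2 scale. Other LINC RNAs just below 0, such as LINC01341 (-0.01) and LINC03072 (-0.02), lie within that shift and are not listed here. LINC02197 had a log2 fold change of 0.048 and LINC00641 of 0.053 with library totals alone. With 1 library left out at a time, LINC00641 ran from -0.109 to 0.015, the highest without control replicate 2. LINC02693 ran from -0.026 without RUVBL1 siRNA replicate 3 to 0.096, and LINC00649 from -0.092 without control replicate 2 to 0.184. In the fits of all 6 libraries LINC00632 had -0.081, and -0.073 with the block. The causes were not tested. With 1 library left in a group, that library is assumed to vary like the other group. Depth limits the 63 genes that average under 100 normalized counts.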
